A study of Mus musculus with 108 samples.

Results

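Glo1, 1700097N02Rik and Dnah8 are 3 genes that follow each other on mouse chromosome 17, and their transcript levels were described here in 6 tissues of 6 inbred strains. Every probe set assigned to these genes alone was taken, which gave 9 of 34945 single-gene probe sets and 3 of 18194 genes measured. Glo1 had 4 probe sets, Dnah8 had 2 and 1700097N02Rik had 3. The genes were chosen by the strain differences of these same log2 signals, known from earlier work on these data, so the strain differences below are described without a test. Tests were made for single animals within a strain, for neighbouring genes and for gene lists. A test of the dependence of the strain differences on tissue draws on the same signals as the choice and is given as a description alone.

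The study measured whole-tissue RNA of brain, heart, kidney, liver, lung and testis on Affymetrix arrays. The animals were males of 11 to 14 weeks of the strains C57BL/6J, A/J, DBA2/J, AKR/J and C3HeB/FeJ, bought from the Jackson Laboratory, and of 129S2, bought from Charles River, so supplier and strain cannot be told apart for 129S2. None carried an engineered allele or a treatment per the labels. Each strain and tissue had 3 arrays, 1 per animal by the sample titles, although the protocol text speaks of pools. Each animal of AKR/J, A/J, C3HeB/FeJ and DBA2/J gave all 6 tissues. C57BL/6J used animals 2, 3 and 4 for brain, heart and lung and animals 10, 11 and 12 for kidney, liver and testis, so no animal was shared. For 129S2 the animals of these 2 sets of tissues were partly different. Where a difference from C57BL/6J is set between a tissue of one set and a tissue of the other, tissue and the C57BL/6J animals cannot be told apart. C57BL/6J is the strain of the reference genome and is the base of every strain difference below, so the 5 differences in a tissue share its 3 arrays. Levels are the deposited log2 signals, on which 1 unit is a doubling, and they were compared only within a tissue because array medians differed between tissues.

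Glo1 encodes glyoxalase 1, which joins with glutathione to clear methylglyoxal, a reactive by-product of glycolysis. Hagh, glyoxalase 2, completes that pathway. Dnah8 encodes a heavy chain of axonemal dynein, the motor of cilia and sperm tails, and is known for its expression in male germ cells. 1700097N02Rik is listed by RefSeq as a long non-coding RNA gene, and its start lies head to head with that of Dnah8. A duplication of a segment that holds Glo1 has been described in several inbred mouse strains. Copy number was not measured on these arrays, so whether these animals carry the duplication was not tested.

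Because the starts of Dnah8 and 1700097N02Rik lie so close, the promoter sequence is shown first. The sequences are those of RefSeq GRCm38.p6, a C57BL/6J sequence, and each runs from 5′ to 3′ on the strand of its gene up to the base before the start. Capitals mark matches on either strand to any of 5 motifs: the TATA box TATAAA, the CCAAT box, the GC box GGGCGG, the E-box CACGTG and the antioxidant response element core TGACNNNGC. The Glo1 window is chr17:30612660-30612909 on the minus strand and the Dnah8 window is chr17:30626686-30626935 on the plus strand. The last window, chr17:30626906-30626935, holds the 30 bases between the starts of 1700097N02Rik and Dnah8, read on the plus strand.

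Glo1: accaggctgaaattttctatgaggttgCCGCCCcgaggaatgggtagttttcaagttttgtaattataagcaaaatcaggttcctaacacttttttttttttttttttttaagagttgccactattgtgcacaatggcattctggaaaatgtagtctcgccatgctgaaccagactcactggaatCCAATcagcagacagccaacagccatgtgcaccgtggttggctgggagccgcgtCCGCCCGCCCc
Dnah8: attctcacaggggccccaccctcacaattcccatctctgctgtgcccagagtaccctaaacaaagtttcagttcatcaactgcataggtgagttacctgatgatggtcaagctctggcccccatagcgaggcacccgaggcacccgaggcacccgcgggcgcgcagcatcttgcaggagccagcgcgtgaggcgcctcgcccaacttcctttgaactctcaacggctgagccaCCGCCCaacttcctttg
Between the starts: aacggctgagccaCCGCCCaacttcctttg

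All 3 genes had a window in the table. In the 250 bases before the start, the Glo1 window held 3 matches to GGGCGG, of which a pair overlap, and 1 to CCAAT. Dnah8 and 1700097N02Rik held 1 match to GGGCGG each, and it is the same stretch of bases, read from opposite strands. GGGCGG occurred in 35.7% and CCAAT in 37.4% of the 32851 promoter windows of 300 bases in the table. None of the members' windows matched the TATA box, the E-box or the antioxidant response element core, which occurred in 13.6%, 7.15% and 12.4% of all windows. A match here is a match of letters only.

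Some arrays stood apart before any strain was compared. In brain, array 129S2 2 and array AKR/J 2 lay between the strains they are labelled with. Over 12 other genes at least 1 log2 unit apart in one direction between 129S2 and AKR/J in each of the other 5 tissues, the signed mean log2 signal was 2.99 and 2.93 on the other 129S2 brain arrays and 0.62 and 0.74 on the other AKR/J brain arrays. It was 1.35 on array 129S2 2 and 1.95 on array AKR/J 2. In the same check no array of the other 5 tissues lay between the strains. The cause was not tested. The Glo1 differences in brain and the counts of genes passing in brain are given with and without this pair, a choice made after the data were seen. Brain ranges of single listed genes are given with it. The source names number the 3 brain arrays of 129S2 differently from the titles, and the titles were used. In addition, AKR/J animal 1 had the lowest Glo1 signal of its strain in all 6 tissues, which is described below. Tissue labels held on every array: among the marker lists of the 6 tissues, that of the labelled one read highest on 18 of 18 arrays per tissue.

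Glo1 was higher in all 5 other strains than in C57BL/6J in every tissue. On its brightest probe set, 1424109_a_at, all 15 arrays of the other strains lay above all 3 C57BL/6J arrays in 6 of 6 tissues. That pattern held for 1.3% of single-gene probe sets in heart, 1.65% in lung, 2.45% in brain, 2.47% in testis, 2.48% in liver and 2.62% in kidney. The median fold over C57BL/6J across the 6 tissues was 3.03 in A/J, 2.73 in 129S2, 2.07 in C3HeB/FeJ, 2.04 in DBA2/J and 2.00 in AKR/J. A/J and 129S2 had higher means than the other 3 strains in every tissue but testis, where A/J was highest and 129S2 was not above C3HeB/FeJ.

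**Figure D1:**
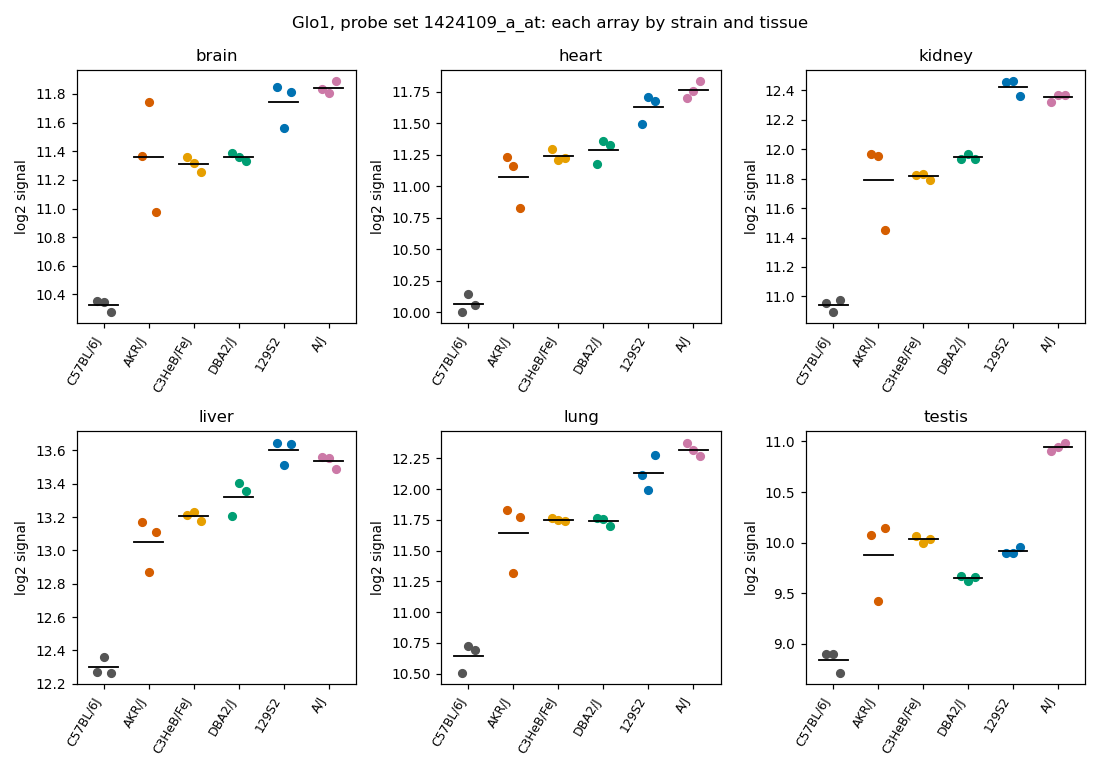
Log2 signal of Glo1 probe set 1424109_a_at on each array, by strain (horizontal axis) in 1 panel per tissue; points are arrays and bars are the means of 3. C57BL/6J lies below all other points in each panel, A/J and 129S2 have the highest means outside testis, and 1 AKR/J array is low in each panel.

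Liver was where Glo1 ranked highest, above 99.7% of single-gene probe sets on the same probe set. The C57BL/6J liver arrays read 12.27, 12.27 and 12.36, the AKR/J arrays 12.87, 13.11 and 13.17, and the C3HeB/FeJ arrays 13.18, 13.21 and 13.23. The DBA2/J liver arrays read 13.21, 13.36 and 13.40, the A/J arrays 13.49, 13.55 and 13.56, and the 129S2 arrays 13.51, 13.64 and 13.65. The arrays of 129S2 and A/J overlapped and lay above all arrays of the other strains. The difference from C57BL/6J was 1.30 ± 0.08 in 129S2 and 1.24 ± 0.08 in A/J (log2 ± SE, n = 3 each), which is 2.47-fold and 2.36-fold. AKR/J differed by 0.75 ± 0.08, the smallest difference of the 30 strain and tissue pairs.

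Testis was where it ranked lowest, above 91.2% of probe sets, and had the widest strain range, 2.11 log2 units. The C57BL/6J testis arrays read 8.71, 8.90 and 8.90 and the DBA2/J arrays 9.62, 9.66 and 9.67. The 129S2 arrays read 9.90, 9.90 and 9.95, the AKR/J arrays 9.42, 10.07 and 10.14, and the C3HeB/FeJ arrays 9.99, 10.04 and 10.06. The A/J arrays read 10.91, 10.95 and 10.99, apart from all others. A/J was thus 4.32-fold over C57BL/6J (2.11 ± 0.12 log2 ± SE), whereas 129S2, which ran beside A/J in the other tissues, was 2.11-fold (1.08 ± 0.12). In testis 129S2 overlapped AKR/J and lay below C3HeB/FeJ.

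In brain the C57BL/6J arrays read 10.28, 10.35 and 10.36, and the means ± SD (n = 3) of the other strains were 11.31 ± 0.05 in C3HeB/FeJ, 11.36 ± 0.03 in DBA2/J, 11.36 ± 0.38 in AKR/J, 11.74 ± 0.16 in 129S2 and 11.84 ± 0.04 in A/J. With all arrays, the 5 other strains formed an unbroken chain of overlaps from C3HeB/FeJ to A/J. It ran through AKR/J 2 at 11.741 and 129S2 2 at 11.561, the pair that lay between strains. Without that pair, the 129S2 arrays (11.814 and 11.845) and all A/J arrays lay above every AKR/J, C3HeB/FeJ and DBA2/J array. The highest of those read 11.384, in DBA2/J. Without the pair of brain arrays that lay between strains, the difference from C57BL/6J moved from 1.41 to 1.50 in 129S2 and from 1.03 to 0.84 in AKR/J, and both stayed above every C57BL/6J array.

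In heart, kidney and lung A/J and 129S2 overlapped on top, and all their arrays lay above those of the other 3 strains, whose order varied. In heart C57BL/6J read 10.01, 10.05 and 10.15 and the strain means ± SD (n = 3) were 11.07 ± 0.22 in AKR/J, 11.24 ± 0.05 in C3HeB/FeJ, 11.29 ± 0.10 in DBA2/J, 11.63 ± 0.12 in 129S2 and 11.76 ± 0.07 in A/J. In kidney C57BL/6J read 10.90, 10.95 and 10.98, against 11.79 ± 0.30 in AKR/J, 11.82 ± 0.02 in C3HeB/FeJ, 11.95 ± 0.02 in DBA2/J, 12.35 ± 0.03 in A/J and 12.43 ± 0.06 in 129S2. In lung C57BL/6J read 10.51, 10.70 and 10.72, against 11.64 ± 0.28 in AKR/J, 11.74 ± 0.04 in DBA2/J, 11.75 ± 0.01 in C3HeB/FeJ, 12.13 ± 0.14 in 129S2 and 12.32 ± 0.06 in A/J. AKR/J had the widest SD of the 6 strains in these and in the other 3 tissues.

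The fourth Glo1 probe set differed from the other 3. Probe sets 1424108_at and 1451240_a_at had all arrays of a strain above all C57BL/6J arrays in 30 of 30 strain and tissue pairs, as 1424109_a_at did. Over the 36 strain and tissue means, each centred on its tissue, they correlated with 1424109_a_at at r = 0.986 and r = 0.992. Probe set 1436070_at correlated at r = 0.749 and had this separation in 22 of 30 pairs. The shortfall lay in C3HeB/FeJ and AKR/J, which were apart from C57BL/6J in 2 of 6 tissues each on 1436070_at and had median folds of 1.12 and 1.07. A/J, DBA2/J and 129S2 were apart in 6 of 6 tissues on that probe set, with median folds of 1.73, 1.82 and 2.15. A probe set reads a part of a transcript, and which part 1436070_at reads was not analysed here. Points of these correlations share arrays, and no test was made of them. The counts of separated pairs stand without the share of all probe sets, which was not counted for single pairs.

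Within AKR/J, Glo1 differed between animals in a way that repeated in every tissue. On 1424109_a_at, animals 1, 2 and 3 read 10.98, 11.74 and 11.37 in brain, 10.82, 11.16 and 11.23 in heart and 11.45, 11.97 and 11.95 in kidney. They read 9.42, 10.14 and 10.07 in testis, 12.87, 13.17 and 13.11 in liver and 11.32, 11.83 and 11.77 in lung. Animal 1 was the lowest in 6 of 6 tissues, by 0.48 ± 0.15 log2 units on average (SD over 6 tissues) from the mean of animals 2 and 3. The other 3 Glo1 probe sets had animal 1 lowest in 6 of 6 tissues as well, by 0.43 ± 0.06 on 1424108_at, 0.58 ± 0.22 on 1451240_a_at and 0.59 ± 0.14 on 1436070_at. Animal 1 was 1.42-fold to 1.69-fold over the C57BL/6J mean of the same tissue on 1424109_a_at, against 1.83-fold to 2.66-fold in animal 2 and 1.75-fold to 2.36-fold in animal 3. The 2.66-fold of animal 2 was on its brain array, which lay between strains, and its next highest was 2.47-fold in testis.

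**Figure D2:**
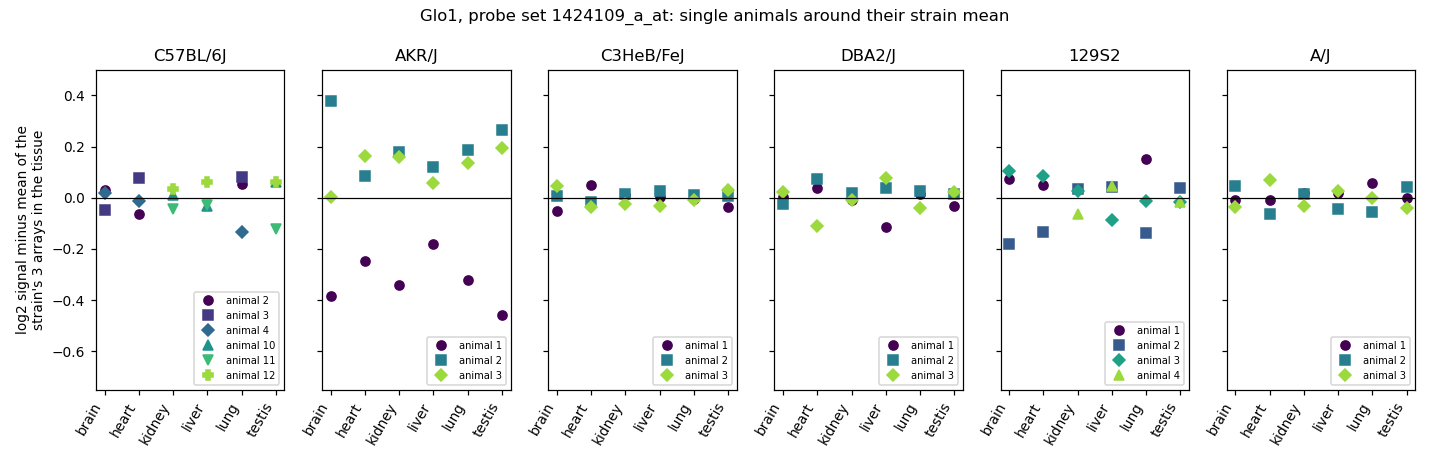
Log2 signal of Glo1 probe set 1424109_a_at on each array minus the mean of the 3 arrays of its strain and tissue, by tissue (horizontal axis) in 1 panel per strain, with 1 symbol per animal. AKR/J animal 1 lies below its strain mean in 6 of 6 tissues, by 0.48 on average from the other animals, while animals of the other strains average between -0.10 and 0.14 from theirs.

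The difference between animals was then tested over all probe sets, a comparison added after these values were seen. For each strain, limma's F test of its animals with tissue as a block was adjusted over all 34945 probe sets. In AKR/J, 4 of 9 member probe sets passed and these were the 4 of Glo1, with adjusted p-values of 0.00364, 0.00364, 0.00417 and 0.0062 and ranks of 3, 4, 6 and 11 among all probe sets. Only 0.1% of probe sets passed in AKR/J, 35 in all from 26 genes, with animal 1 higher than the mean of the other animals on 19 and lower on 16. Among the others, Dctn3, Galt and Rpp25l, all on chromosome 4, ranked 1, 5 and 9 and were highest in animal 2. Heat-shock and other chaperone genes (Hspa1a, Hspa1b, Hspa5, Hspa8, Hsph1, Ahsa1, Dnaja4, Cct3 and Chordc1) and immediate-early genes (Btg2, Ier2 and Ccn1) passed as well. All of these genes were named after their values were seen. Animal 1 was 0.67 and 0.73 log2 units above the others on the 2 probe sets of Btg2 and 0.46 on that of Ier2, while Hspa1a read 9.71, 7.65 and 9.78 in animals 1, 2 and 3, lowest in animal 2. The part of whatever moved those genes in the Glo1 values was not tested. With the brain arrays left out, 0.0458% of probe sets passed and the 4 Glo1 probe sets remained among them, with adjusted p-values from 0.0034 to 0.0247. Dctn3, Galt, Rpp25l, Btg2 and Ier2 also remained, while Hspa1a, Hspa1b, Hspa8, Hsph1 and Ccn1 did not. In the other 5 strains no probe set passed by limma, while between 1825 and 2929 had an unadjusted p under 0.05. None of the 20 neighbouring genes passed in AKR/J, where 0.1% of all probe sets did. An unadjusted p under 0.05 was met there by 0 of 20, against 2246 of 34945 probe sets. With the brain arrays left out it was met by 1 of 20, against 2024. The test compares these 3 animals only, and the 4 Glo1 probe sets read the same gene.

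Dnah8 and 1700097N02Rik showed the same animal low in testis and lung on their brightest probe sets, but did not pass that test over all tissues. In testis AKR/J animals 1, 2 and 3 read 12.71, 13.08 and 13.09 for Dnah8 on 1424936_a_at and 11.09, 11.72 and 11.73 for 1700097N02Rik on 1455692_x_at. In lung they read 7.79, 8.55 and 8.37 for Dnah8 and 6.96, 7.38 and 7.13 for 1700097N02Rik. Animal 1 was the lowest in each of these, and in 4 of 6 tissues for Dnah8 and 3 of 6 for 1700097N02Rik. The adjusted p over 6 tissues was 0.615 for 1424936_a_at and 0.888 for 1455692_x_at by limma. Testis marker levels of the 3 animals lay close together: the mean log2 signal of 7 spermatid markers was 13.55, 13.56 and 13.52, and that of 6 spermatocyte markers was 9.69, 9.71 and 9.79. The 8 ciliated cell markers in lung read 8.31, 8.51 and 8.44. The part of cell makeup in these differences was not tested.

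Leaving out AKR/J animal 1 raised the AKR/J difference from C57BL/6J for Glo1 in every tissue. On 1424109_a_at it moved from 1.03 to 1.23 in brain, from 1.00 to 1.13 in heart and from 0.85 to 1.02 in kidney. The brain value of 1.23 includes array AKR/J 2, which lay between strains. Without that array the brain difference was 0.84 with animals 1 and 3 and 1.04 in animal 3 alone. With animal 1 left out the difference moved from 0.75 to 0.84 in liver, from 1.00 to 1.16 in lung and from 1.04 to 1.27 in testis. The AKR/J means without that animal, 11.96 in kidney, 11.80 in lung and 10.11 in testis, lay above those of C3HeB/FeJ and DBA2/J. With it they lay below C3HeB/FeJ in each of the 3 tissues. In kidney DBA2/J was close, at 11.95. In heart and liver the AKR/J mean stayed below both strains without that animal. It was 11.20 in heart, against 11.24 in C3HeB/FeJ and 11.29 in DBA2/J. In liver it was 13.14, against 13.21 and 13.32.

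Dnah8 ranked highest in testis, where its brightest probe set, 1424936_a_at, read above 99.8% of single-gene probe sets on average. There the C57BL/6J arrays read 12.43, 12.45 and 12.46, the AKR/J arrays 12.71, 13.08 and 13.09, and the C3HeB/FeJ arrays 13.18, 13.19 and 13.24. The DBA2/J arrays read 13.29, 13.32 and 13.36, the A/J arrays 13.52, 13.57 and 13.57, and the 129S2 arrays 13.60, 13.62 and 13.68. All 6 strains were apart from their neighbours in this order, with C57BL/6J lowest and 129S2 highest. The difference from C57BL/6J was 1.19 ± 0.08 in 129S2, 1.11 ± 0.08 in A/J, 0.88 ± 0.08 in DBA2/J, 0.76 ± 0.08 in C3HeB/FeJ and 0.51 ± 0.08 in AKR/J (log2 ± SE). These are 2.28-fold, 2.15-fold, 1.83-fold, 1.69-fold and 1.43-fold. The SE pools the spread of all 6 strains, while the SD of the arrays was 0.215 in AKR/J and between 0.015 and 0.043 in the other strains.

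In lung, a tissue with ciliated airway cells, Dnah8 read 8.20, 8.64 and 8.71 in C57BL/6J and 7.79, 8.37 and 8.55 in AKR/J, and these overlapped. It read 9.21, 9.30 and 9.30 in 129S2, 9.10, 9.24 and 9.25 in A/J and 8.94, 9.08 and 9.09 in DBA2/J, all above C57BL/6J. The C3HeB/FeJ arrays read 8.58, 8.96 and 9.23 and overlapped those of C57BL/6J. AKR/J was -0.28 ± 0.18 from C57BL/6J, the only negative difference of the 30 strain and tissue pairs on this probe set, and -0.06 without animal 1. The strain means of the ciliated cell markers in lung ran from 8.26 in A/J to 8.76 in DBA2/J, with 8.73 in C57BL/6J and 8.42 in AKR/J. Their part in the Dnah8 values was not tested, and in bulk tissue fewer cells of a type and less RNA per cell cannot be told apart.

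Elsewhere Dnah8 was near the floor of the arrays. Strain means of 1424936_a_at lay between 3.92 and 4.15 in liver, 4.09 and 4.34 in kidney, and 4.77 and 5.02 in brain. Heart was low as well, with C57BL/6J at 4.39, 4.56 and 4.86, yet the A/J arrays at 5.63, 5.85 and 6.04 lay above all other heart arrays. All 15 arrays of the other strains lay above C57BL/6J in heart and testis. The second Dnah8 probe set, 1425692_a_at, averaged at most 4.57 in any tissue and separated all other arrays from C57BL/6J in 0 of 6 tissues, so the Dnah8 description rests on 1 probe set.

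**Figure D3:**
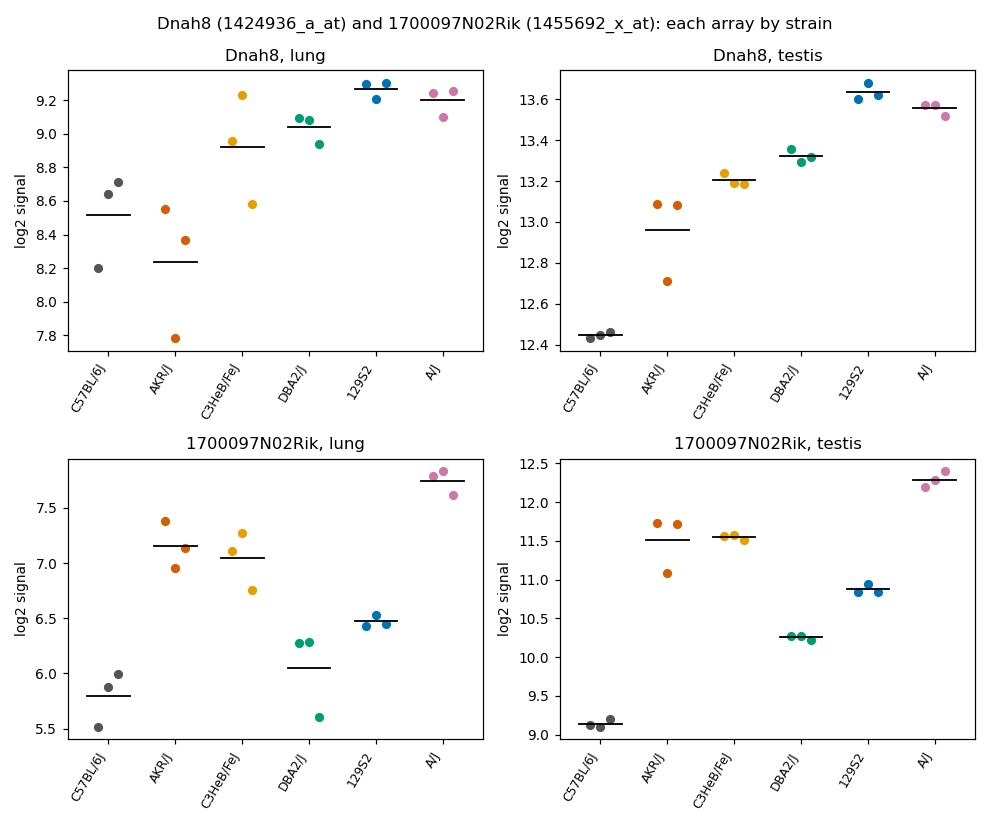
Log2 signal of Dnah8 (upper panels) and 1700097N02Rik (lower panels) on each lung and testis array, by strain (horizontal axis); points are arrays and bars are the means of 3. Dnah8 steps up from C57BL/6J to 129S2 in testis, while 1700097N02Rik is highest in A/J in both tissues.

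1700097N02Rik had the widest strain differences of the 3 genes, and these lay in testis and lung. In testis on 1455692_x_at the C57BL/6J arrays read 9.11, 9.12 and 9.20, the DBA2/J arrays 10.23, 10.28 and 10.28, and the 129S2 arrays 10.84, 10.84 and 10.94. The AKR/J arrays read 11.09, 11.72 and 11.73, the C3HeB/FeJ arrays 11.51, 11.56 and 11.57, and the A/J arrays 12.19, 12.28 and 12.40. AKR/J and C3HeB/FeJ overlapped and every other pair of neighbours in this order was apart. The fold over C57BL/6J was 2.17 in DBA2/J, 3.32 in 129S2, 5.17 in AKR/J, 5.29 in C3HeB/FeJ and 8.86 in A/J. Probe set 1436419_a_at gave the same order, from 9.11 ± 0.12 in C57BL/6J to 12.67 ± 0.08 in A/J (mean ± SD, n = 3), which is 11.8-fold. The dimmer 1456546_at had A/J highest at 2.76-fold and C57BL/6J lowest. All 3 probe sets had all 15 other arrays above C57BL/6J in testis and in no other tissue.

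The strain order of this non-coding RNA in testis was not that of Dnah8, which starts 30 bases away on the other strand. 129S2 had the highest Dnah8 signal but the fourth 1700097N02Rik signal, and DBA2/J was above AKR/J and C3HeB/FeJ for Dnah8 and below both for 1700097N02Rik. Across the 36 tissue-centred strain means the correlation was r = 0.372 between Dnah8 and 1700097N02Rik, r = 0.68 between Glo1 and Dnah8 and r = 0.553 between Glo1 and 1700097N02Rik, values that share their arrays. In lung 1455692_x_at read 5.52, 5.88 and 5.99 in C57BL/6J, 5.60, 6.27 and 6.28 in DBA2/J and 6.43, 6.45 and 6.53 in 129S2. It read 6.76, 7.11 and 7.28 in C3HeB/FeJ, 6.96, 7.13 and 7.38 in AKR/J and 7.62, 7.79 and 7.83 in A/J. A/J was again apart on top, and C57BL/6J overlapped DBA2/J alone. On 1436419_a_at the DBA2/J lung arrays, 4.19, 4.27 and 4.28, lay below the C57BL/6J arrays, 4.38, 4.44 and 4.46.

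In brain, heart, kidney and liver 1700097N02Rik was low, and the strain range of 1455692_x_at was between 0.11 and 0.48 log2 units. In liver on 1436419_a_at the C3HeB/FeJ arrays, 3.69, 3.76 and 3.86, lay above all other liver arrays, with C57BL/6J at 2.95, 3.02 and 3.15, in the lowest part of the signal range. In testis the spermatid marker means were close between strains, from 13.49 in A/J to 13.55 in DBA2/J. The spermatocyte marker means ran from 9.73 in AKR/J to 10.03 in A/J, the strain with the highest Glo1 and 1700097N02Rik signals there. Leydig cell markers were 10.89 in AKR/J and between 9.78 and 10.07 in the other strains. The part of cell makeup in the testis differences of the 3 genes was not tested.

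The strain differences of the 3 genes varied in size between tissues. A test of this uses the signals by which the genes were chosen, so it is not independent of that choice, is given as a description and supports nothing further. The F test of the 25 interaction contrasts of strain and tissue passed for 9 of 9 by limma, with adjusted p-values from 1.16e-32 for 1700097N02Rik on 1436419_a_at to 0.00177 for Dnah8 on 1425692_a_at. It passed for 65.3% of all single-gene probe sets, and for 79.4% of those with a mean log2 of at least 6, so passing alone does not set the members apart. For Glo1 the adjusted p was 1.64e-06 on 1424109_a_at, 3.49e-05 on 1451240_a_at, 0.000105 on 1436070_at and 0.0014 on 1424108_at. Without the pair of brain arrays 9 of 9 still passed.

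Strain by strain, the probe sets of Glo1 differed in which strains passed. These tests also draw on the signals of the choice and are given as a description alone. They span tissues with different C57BL/6J animals, and those animals and tissue cannot be told apart. For A/J minus C57BL/6J the dependence on tissue passed on 1424109_a_at (adjusted p = 5.14e-05, limma) and on 1451240_a_at (0.000772), but not on 1424108_at (0.467) or 1436070_at (0.11), and 33% of all probe sets passed. For DBA2/J it passed on 1436070_at (0.000922) and 1424108_at (0.0489), against 36.5% of all probe sets, and for 129S2 on the same pair (0.000722 and 0.0106), against 38%. The A/J difference in testis was 2.11 on 1424109_a_at and 2.48 on 1451240_a_at, the highest of the 6 tissues on both. On 1424108_at the A/J differences ran from 1.52 in liver to 1.81 in heart. On 1424109_a_at and 1451240_a_at A/J alone passed, and on 1424109_a_at the adjusted p was 0.33 in DBA2/J, 0.0819 in 129S2, 0.28 in C3HeB/FeJ and 0.468 in AKR/J. No Glo1 probe set passed in C3HeB/FeJ or AKR/J, against 36% and 33.1% of all probe sets. For Dnah8 on 1424936_a_at and 1700097N02Rik on 1455692_x_at all 5 strains passed, against 33% to 38% of all probe sets.

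**Figure D4:**
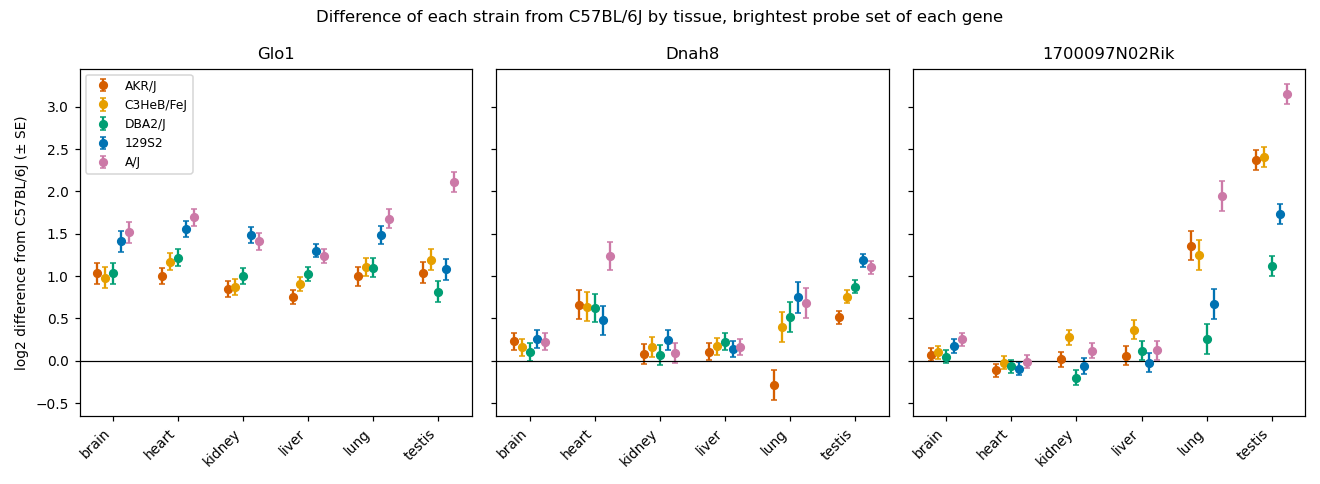
Log2 difference of each of 5 strains from C57BL/6J (points, with the standard error of the fit as bars) by tissue on the horizontal axis, for the brightest probe set of each gene. Glo1 lies between 0.75 and 2.11 in all tissues, Dnah8 is widest in heart, lung and testis, and 1700097N02Rik departs from 0 mainly in lung and testis.

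The genes on either side were measured to see how far along the chromosome the pattern of the 3 genes went. The 10 nearest measured genes on each side by RefSeq order were used, and averaged over the 6 tissues none of the 20 differed from C57BL/6J as widely as Glo1. In that average Glo1 was 0.95 to 1.61 log2 units above C57BL/6J, Dnah8 0.22 to 0.58 and 1700097N02Rik 0.21 to 0.93, given as a description. By limma 6 of 20 neighbours passed in A/J, 3 higher and 3 lower, against 29.6% of all genes, 17% higher and 12.6% lower. In DBA2/J 3 passed, 1 higher and 2 lower, against 29.5%, 17.2% higher and 12.3% lower. In 129S2 7 passed, 2 higher and 5 lower, against 29.6%, 16.2% higher and 13.4% lower. In C3HeB/FeJ 7 passed, 3 higher and 4 lower, against 28.3%, 16.6% higher and 11.7% lower. In AKR/J 8 passed, 3 higher and 5 lower, against 26.6%, 15.9% higher and 10.8% lower. The shares of neighbours and of all genes were not tested against each other. A passing difference of at least 0.5 was met by 1 neighbour each in A/J, C3HeB/FeJ and AKR/J, which was Tbc1d22bos, lower in each, and by none in DBA2/J or 129S2, against 2.07%, 2.06%, 1.83%, 2.04% and 2.14% of all genes. In size, though not in direction, Tbc1d22bos thus lay within the spans given above for Dnah8 and 1700097N02Rik. Of the 20 neighbours, 11 had a mean log2 of at least 6 over all arrays.

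Btbd9, which encodes a BTB domain protein and is the measured gene next to Glo1, was higher in all 5 strains. Its differences were 0.14 ± 0.03 in A/J, 0.12 ± 0.03 in DBA2/J, 0.10 ± 0.03 in 129S2, 0.20 ± 0.03 in C3HeB/FeJ and 0.21 ± 0.03 in AKR/J (log2 ± SE), with limma adjusted p-values from 1.46e-06 to 0.0198. Glp1r, the receptor of glucagon-like peptide 1 and the first measured neighbour beyond Dnah8, was lower in 129S2 (-0.17 ± 0.06, adjusted p = 0.0199) and AKR/J (-0.15 ± 0.06, adjusted p = 0.0384). It did not pass in A/J (-0.07 ± 0.06), DBA2/J (-0.08 ± 0.06) or C3HeB/FeJ (0.04 ± 0.06). Btbd9 was named after its values were seen, as the gene next to Glo1.

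**Figure D5:**
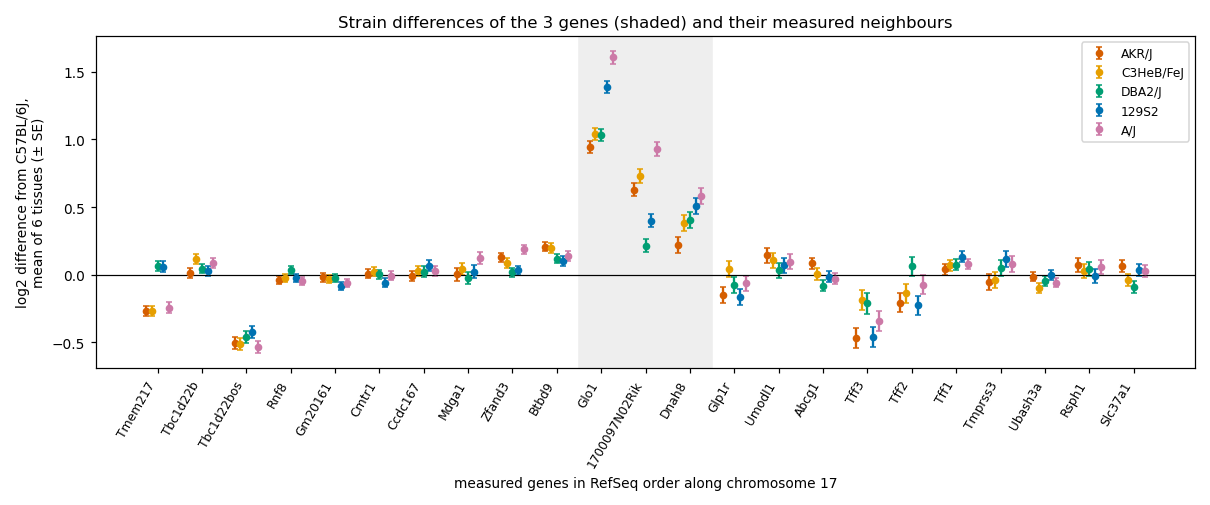
Log2 difference of each of 5 strains from C57BL/6J, mean of 6 tissues with the standard error of the fit, for the 3 genes (shaded) and the 10 nearest measured genes on each side in RefSeq order. Glo1 reaches 0.95 to 1.61, and the neighbours lie between -0.54 and 0.21.

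Within single tissues the F test of strains passed for 8 of 20 neighbours in testis (40.5% of all genes), 5 in kidney (46.1%) and 5 in lung (32.5%). It passed for 2 in brain (23.1%), 4 in liver (31.6%) and 0 in heart (21%). In heart 2 of the 20 had an unadjusted p under 0.05 by limma, against 6328 of all 18194 genes. Tbc1d22bos, listed as a gene on the opposite strand of Tbc1d22b, had the widest range, 3.44 log2 units in testis. It was highest in C57BL/6J at 7.17 ± 0.16 and lowest in A/J at 3.73 ± 0.10 (SD, n = 3), the reverse of the 3 members. Tff3, which encodes a trefoil peptide of mucous epithelia, was 8.34 ± 0.19 in C57BL/6J liver and 5.63 ± 0.57 in 129S2 liver. Tmem217 had a range of 1.61 in testis, Tff2, another trefoil peptide, 1.55 in lung, and Glp1r 1.25 in lung with C3HeB/FeJ highest. Slc37a1 in kidney, Abcg1, a cholesterol exporter, in lung and Umodl1 in testis had ranges of 0.84, 0.81 and 0.65. All 8 passed by limma with adjusted p-values of at most 0.0137, the value of Umodl1, which lost its call without testis array DBA2/J 3.

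Genes of the wider glyoxalase pathway were read beside Glo1. Of 19 measured genes of methylglyoxal and glutathione metabolism, 16 (84.2%) passed the F test of strains in kidney, where 46.1% of all genes passed. In testis 12 (63.2%) passed against 40.5%, in liver 12 (63.2%) against 31.6%, and in heart 11 (57.9%) against 21%. In lung 4 (21.1%) passed against 32.5%, and in brain 4 (21.1%) against 23.1%, at or below the share of all genes. These shares were not tested against each other. Of the 19 genes, 18 in kidney and 17 in each other tissue had a mean log2 of at least 6. The shares of all genes were not matched for that level. The median strain range of the list in liver was 0.32 log2 units and that of all genes 0.26. Without the pair of brain arrays that lay between strains, 7 of 19 passed in brain, against 27.5% of all genes.

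Hagh, glyoxalase 2, passed in heart, kidney, liver and lung. Its widest range was 0.62 log2 units in heart, where C57BL/6J was the highest at 9.30 ± 0.14 and 129S2 the lowest at 8.68 ± 0.18 (SD, n = 3). In kidney it ran from 11.38 ± 0.11 in 129S2 to 11.85 ± 0.05 in DBA2/J, and in lung its range was 0.47. In liver 129S2 was again the lowest at 11.91 ± 0.08, a call (limma adjusted p = 0.0399) that was lost when any 1 of 12 of the 18 arrays was left out. Hagh did not pass in testis (0.09, adjusted p = 0.784) or brain (0.20, adjusted p = 0.0895). Park7, which encodes DJ-1, a protein with roles in oxidative stress, passed in heart, kidney, liver and testis with ranges of 0.36, 0.31, 0.28 and 0.33. A/J was the highest strain for Park7 in heart, kidney and testis.

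The widest differences of the list lay in the aldehyde dehydrogenases and in glutathione synthesis. Aldh1a1, which oxidises retinaldehyde, ran from 7.03 ± 0.05 in C57BL/6J to 11.02 ± 0.19 in A/J in kidney (SD, n = 3). In testis it ran from 11.14 ± 0.05 in DBA2/J to 13.21 ± 0.06 in AKR/J. In heart its range was 1.00, a call lost without AKR/J 1 or AKR/J 2. Aldh9a1, another aldehyde dehydrogenase, was lowest in DBA2/J in brain, heart, liver and testis, with ranges of 0.60, 1.54, 0.78 and 0.83. Gss, glutathione synthetase, was 7.98 ± 0.06 in 129S2 and 6.14 ± 0.06 in A/J in testis. Gclc and Gclm, the subunits of the enzyme that starts glutathione synthesis, ranged over 0.89 in kidney and 0.85 in lung for Gclc, and 1.26 in heart and 1.11 in liver for Gclm. Ggct, which breaks down gamma-glutamyl amino acids, ranged over 1.54 in kidney and 1.33 in liver with DBA2/J highest in both. Gsr, glutathione reductase, ranged over 0.46 in brain and 0.45 in lung, where the call was lost without DBA2/J 1 or DBA2/J 2, and Haghl over 0.25 in brain.

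Other axonemal dynein genes were read beside Dnah8. Of 14 measured, 8 (57.1%) passed in testis against 40.5% of all genes, and 6 (42.9%) in lung against 32.5%. In brain 4 (28.6%) passed against 23.1%, and without the pair of brain arrays 6 passed against 27.5%. The shares in kidney (3 genes, 21.4%), liver (2 genes, 14.3%) and heart (1 gene, 7.14%) lay below those of all genes, which were 46.1%, 31.6% and 21%. Of the 14 dyneins, 3 in kidney, 2 in liver and 2 in heart had a mean log2 of at least 6. The shares of all genes were not matched for signal level. Dnah7a, a heavy chain, ran from 5.94 ± 0.33 in AKR/J to 8.65 ± 0.09 in A/J in testis, and Dnah11, another, from 6.48 ± 0.13 in A/J to 7.42 ± 0.07 in 129S2. Dnali1, a light intermediate chain, was highest in C57BL/6J testis at 11.11 ± 0.12 and lowest in AKR/J at 10.59 ± 0.01. In lung the widest were Dnah7a (1.13), Dnaic1 (0.94) and Dnali1 (0.72), each highest in DBA2/J, the strain with the highest ciliated cell markers there; the part of those cells was not tested. Dnaic1, an intermediate chain, had the widest range of the list, 3.32 in liver, from 4.99 ± 0.33 in C57BL/6J to 8.31 ± 0.31 in DBA2/J (SD, n = 3).

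Fewer dyneins passed in the remaining tissues. In brain Dnah6, Dnaic1 and Dnah7a ranged over 0.86, 0.72 and 0.59, with C57BL/6J lowest for Dnah6 and Dnaic1. In kidney Dnah12, Dnah1 and Dnal1 ranged over 0.42, 0.40 and 0.30, with 129S2 highest in each. Dnaic1 alone passed in heart, with a range of 0.78, and Dnah11 passed beside it in liver with 0.61. The heart call of Dnaic1 was lost when any 1 of 11 of the 18 arrays was left out, the kidney call of Dnah1 for 8 of 18 and the liver call of Dnah11 for 7 of 18.

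The genes with the strain and tissue pattern most like each member were found by correlation over the 36 tissue-centred means, as a description. For Glo1 these were Ttc5 (r = 0.868), Ptp4a2 (0.863), Rmdn1 (0.839), Tmem87a (0.838) and Supt16 (0.837), and none of them lies on chromosome 17. For Dnah8 they were Ifnar1 (0.716), Atp1a4 (0.709) and BC037704 (0.691). For 1700097N02Rik they were Zfp521 (0.77), Rtkn2 (0.748) and Ssr1 (0.713). The genes named here were picked as the highest correlations among all genes measured. Values above the r = 0.68 between Glo1 and Dnah8 can therefore come from the picking alone. Dnah8 was also near the floor of the arrays in brain, kidney and liver.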

How the data were processed

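The log2 signals analysed here are those the authors deposited after RMA (its version is not stated), per the submitters' processing notes. No source used here says if RMA was run over all tissues at once, so strains were compared within a tissue. Of 45101 probe sets, 64 were controls, 932 had more than 1 gene and 9160 had none listed, and these were not used. The 34945 others have 1 gene in the platform's annotation, and 34741 matched RefSeq GRCm38.p6 by gene ID. RefSeq gave names, gene order and promoters, and the build behind the probes is not stated.

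The members and lists were chosen with earlier results of these data known. Tests used R 4.3.3 and limma 3.58.1 at a Benjamini-Hochberg adjusted p of 0.05. The F test of strains used 18194 genes, each on its brightest probe set, per tissue. Tissue averages and the interaction used all arrays and took the animal as random block, with a correlation of 0.0179. Deviations of the same animal in different tissues correlated at 0.0341 on average, and those of different animals at -0.00171. Titles gave animal numbers where source names differ (4 arrays). Precision is limited by 3 arrays per group. A p-value measures the spread between these arrays. Each SE is that of limma's fit and pools the spread of all strains.

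Neighbours were named if they passed in a tissue with strain means at least 0.5 apart (at most 8, widest first). From each list Hagh, Park7 and the 3 widest passing genes per tissue were named. Alternatives were an intensity trend with robust prior, a minimum mean log2 of 6, a replicate block, the mean of all probe sets, quantile normalization again, and leaving out arrays or animals. The scripts were tested on simulated data.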

Additional observations from a re-analysis of the deposited data

Results flagged for a closer look

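For each of the 9 probe sets of the 3 genes, the strain differences varied with tissue by the interaction test of limma, adjusted over all single-gene probe sets. The adjusted p-values for Glo1 were 0.0014 on 1424108_at, 1.64e-06 on 1424109_a_at, 0.000105 on 1436070_at and 3.49e-05 on 1451240_a_at. For Dnah8 they were 1.39e-08 on 1424936_a_at and 0.00177 on 1425692_a_at. For 1700097N02Rik they were 1.16e-32 on 1436419_a_at, 1.38e-29 on 1455692_x_at and 3.1e-11 on 1456546_at. The test uses the signals by which the genes were chosen and is given as a description. Since 65.3% of all probe sets passed, the pass alone does not single these genes out.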

How the results depend on the processing

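Titles number the arrays within each strain, and same-numbered arrays come from different animals, so the numbers pair nothing. With the replicate block the genes passing fell to 1 of 20 neighbours in brain and 0 dynein genes in heart. In kidney, liver and testis the C57BL/6J arrays carry numbers that no other strain has. The block there left the C57BL/6J level to 1 array, so its counts in those tissues are not given. With a mean log2 of at least 6, counts became 7 glyoxalase genes in brain, 3 neighbours in kidney, 2 in liver, 0 dynein genes in heart and 1 in kidney, and 3, 4 and 3 neighbours in the tissue-averaged 129S2, C3HeB/FeJ and AKR/J differences; fewer genes were tested there. An intensity trend with robust prior gave 10 glyoxalase genes in brain. The mean of all probe sets gave 1 neighbour and 8 glyoxalase genes in brain and 1 dynein gene in kidney. Leaving out the pair of brain arrays, chosen after the data were seen, gave 1 neighbour, 7 glyoxalase and 6 dynein genes in brain, and 5 neighbours in the tissue-averaged C3HeB/FeJ difference. The cause of the other changes was not tested.

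Leaving out each array in turn gave 1 to 3, 0 to 1, 4 to 5, 3 to 5, 3 to 7 and 6 to 8 neighbours in brain, heart, kidney, liver, lung and testis. It gave 3 to 6, 9 to 12, 14 to 16, 11 to 12, 3 to 6 and 10 to 13 glyoxalase genes, and 3 to 5, 0 to 1, 2 to 5, 1 to 3, 6 to 7 and 6 to 9 dynein genes. Leaving out each animal gave 5 to 8 neighbours for A/J, 2 to 4 for DBA2/J, 4 to 7 for 129S2, 5 to 7 for C3HeB/FeJ and 5 to 8 for AKR/J, and the interaction passed for 9 of 9 member probe sets each time. Signs turned with other probe sets in 5 differences. For Glo1 on 1436070_at these were C3HeB/FeJ kidney (-0.025) and AKR/J liver (-0.0036). On 1424109_a_at those 2 differences were 0.87 and 0.75. The others were Dnah8 in C3HeB/FeJ lung (-0.0095) and AKR/J lung (0.079) on 1425692_a_at, and 1700097N02Rik in DBA2/J lung (-0.18) on 1436419_a_at.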
